A study of Rattus norvegicus with 2 samples.

Results

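Fcnb Vcan classical monocyte-like cells of the infarcted rat heart are described here, 1191 of the 29688 cells that passed the filters. They were chosen from raw unique molecular identifiers (UMIs, each 1 captured transcript). A cell had at least 1 UMI of Fcnb, at least 2 of Vcan, Thbs1 and Cd14 together, and at most 2 of C1qa, C1qb and C1qc together. Spp1 had to hold under 0.3% of its UMIs, and S100a8 with S100a9 under 2%, with no UMI of Cd3e or Cd79b. These limits leave out macrophages with complement C1q or osteopontin, neutrophils, T cells and B cells.

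The cells came from left ventricles, infarct and surrounding zone together, 7 days after surgery, and were sorted for the leukocyte protein CD45. The labels give wt rats in 2 groups, both with a myocardial infarction. The group MI had the infarct, and the group MI+PUR-hAESC also carried a polyurethane patch with human amniotic epithelial stem cells, so an infarct is shared by both and hearts without one are not among the groups. Each group is 1 library, and strain, age, sex and the number of rats behind a library are not given in the labels. The deposited matrix pools both libraries, told apart by barcode suffixes 1 and 2 and named library 1 and library 2 after them. Which suffix belongs to which group is not given in the labels or files. The direction of a difference between libraries therefore cannot be tied to a treatment, and there is no replicate to test it.

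Classical monocytes leave the bone marrow, enter injured muscle through chemokine receptors and adhesion molecules, and there turn into macrophages. In the infarcted heart they carry the early inflammatory wave, clear debris and later take part in scar formation. Fcnb encodes ficolin B, a lectin of myeloid cells that binds sugars and starts the lectin pathway of complement. Vcan encodes the matrix proteoglycan versican, Thbs1 the matrix protein thrombospondin 1, and Cd14 the co-receptor for bacterial lipopolysaccharide.

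Library 1 held 770 such cells, 5.45% of 14137 cells (exact 95% binomial interval 5.08 to 5.83), and library 2 held 421, 2.71% of 15551 (2.46 to 2.97). The share was about 2-fold higher in library 1, and the intervals, which cover counting error only, lay apart. Without the condition on Vcan, Thbs1 and Cd14 the shares were 7.31% and 5.0%, a smaller gap. Their median depth was 7894.5 UMIs and 2221.5 genes in library 1, and 7576 UMIs and 2306 genes in library 2. Summed over cells this gave 6308483 and 3386018 UMIs. The mitochondrial median was 3.45% and 3.28%, and 24 and 15 cells were called doublets. Over all barcodes the libraries held 72506643 and 82802439 UMIs, and 71 barcode sequences occurred in both. Of the chosen cells, 8 had a barcode that the other library also held, and 0 were members in both.

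The limits cut through neighbouring cells at several points. Fcnb stood at exactly 1 UMI in 75 cells of library 1 and 40 of library 2, with medians of 16 and 18 UMIs per cell. The next cells outside, which failed the Fcnb limit only, numbered 418 and 279. Vcan, Thbs1 and Cd14 together had medians of 23 and 11 UMIs, with exactly 2 in 39 and 44 cells. This limit alone kept out 264 and 356 cells, more in library 2. The C1q limit alone kept out 168 and 138 cells, and 673 (87.4%) and 343 (81.5%) of the members had no C1q UMI. The limits on Spp1 (42 and 10 cells), on S100a8 with S100a9 (28 and 7), on Cd3e (75 and 66) and on Cd79b (18 and 34) alone kept out fewer.

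Levels are given as CPM, the UMIs of a gene summed over the cells of a class in a library and scaled to a fixed total that was the same for every class and library, library 1 first. The genes of the rule are a description of the choice. Fcnb stood at 2439 and 3128 CPM, Vcan at 1696 and 876, Cd14 at 1313 and 824, and Thbs1 at 664.5 and 99.5. Fcnb alone was higher in library 2, and Thbs1 differed most, found in 55.5% of cells of library 1 and 21.4% of library 2. T-like cells, which should lack these transcripts, gave Fcnb at 81.8 and 28.05 CPM and Thbs1 at 15.9 and 2.30. At 1500 UMIs drawn from each cell, Fcnb was present in 83.8% and 82.5% of the members, against 2.96% and 1.33% of T-like cells, whose undrawn median depths were 4933 and 5095.5 UMIs.

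The label was set against markers that the rule did not use. Of 24 markers of classical monocyte identity, 20 were in the matrix and 19 reached 20 CPM. Lyz2, encoding lysozyme, stood at 24410 and 22702 CPM, and Csf1r, the receptor of the growth factor that keeps monocytes alive, at 481 and 457. Fcgr1a, the high-affinity Fc receptor, stood at 219 and 221. F13a1, of the same list, was lower, at 26.8 and 9.45 CPM. Such levels alone do not set the cells apart from the other classes described below. The identity list summed to 42589 and 39982 CPM here, most of it Lyz2. It summed to 17636 and 20710 CPM in Adgre4 monocyte-like, 26395 and 26304 in C1q macrophage-like and 24991 and 20281 in neutrophil-like cells. Ccr2, Plac8, Chil3 and Cd36, which also mark classical monocytes, were not in the matrix under these symbols and could not be checked. Of genes of the granule and progenitor list, Prtn3, Ctsg, Ms4a3, Ngp and Ltf were at 0 in both libraries, while Hp, encoding haptoglobin, stood at 129 and 231 CPM.

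Beside 77 and 207 Adgre4 monocyte-like cells, which carry a non-classical monocyte marker and were chosen with Fcnb at 0, the Fcnb Vcan cells are described by the same marker lists. The classes were cut from the same counts, so these differences are a description with no test. Over all genes, 2.55% were at least 2-fold higher and 3.50% at least 2-fold lower than in Adgre4 monocyte-like cells in both libraries. Of 20 identity markers, 15 were higher in both libraries and 4 lower, and of 13 non-classical markers 2 were higher and 10 lower, where 24.9% of all genes were higher and 48.1% lower in both by any amount. Fcgr3a, an activating Fc receptor of non-classical monocytes, stood at 9.51 and 54.6 CPM against 449 and 1052, and Spn, the sialophorin CD43, at 82.6 and 142 against 610 and 857. Eno3, the muscle form of enolase, stood at 7.29 and 21.3 CPM against 302 and 475. These 3 genes were thus low in Fcnb Vcan cells of both libraries.

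Among the named genes above the Adgre4 monocyte-like level, Ass1, the urea-cycle enzyme that makes argininosuccinate, stood at 183 and 176 CPM against 16.8 and 11.1. Mgst2, a membrane glutathione transferase, stood at 166 and 182 CPM against 8.39 and 15.7. Hp stood against 14.7 and 7.38 CPM, and Hopx, a small homeodomain protein, at 2641 and 2084 CPM against 610 and 281. Fn1, encoding fibronectin, stood at 2617 and 1674 CPM against 440 and 402. Of 17 genes of the matrix, coagulation and plasmin list outside the rule, Fn1 among them, 15 were higher in both libraries and 9 at least 2-fold. Of 19 genes of the glycolysis and hypoxia list, 18 were higher in both and 4 at least 2-fold. The share of all genes higher by any amount in both libraries was 24.9%.

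Beside 1309 and 1271 C1q macrophage-like cells, 2.93% of genes were at least 2-fold higher and 3.77% at least 2-fold lower in both libraries. The C1q class, unlike the Fcnb Vcan cells, had no limit on Spp1. By any amount, 33.9% were higher and 50.1% lower in both. Of 19 identity markers, 11 were higher in both libraries and 6 lower, and of 13 non-classical markers 7 were higher and 5 lower. Macrophage markers outside the rule were lower in 12 of 12 cases, 11 of them at least 2-fold. Apoe, the lipid carrier of tissue macrophages, stood at 2388 and 1918 CPM against 38172 and 21066, and Pltp, a phospholipid transfer protein, at 104 and 78.9 against 1749 and 1138. Few Fcnb Vcan cells carried these levels, since 5 cells of each library held 53.5% and 51.8% of the Apoe UMIs. At 1500 UMIs, 18 of 757 and 14 of 416 cells had 20 or more UMIs of the macrophage list and held 60.2% and 60.4% of its UMIs, a limit chosen after seeing the data. Between libraries the log2 ratio of Apoe was −0.31, and 0.035 with Fcnb of at least 2 UMIs. Above the C1q macrophage-like level stood Mal, a membrane raft protein, at 486 and 691 CPM against 16.3 and 22.9. Mal is also on the list of non-classical markers. Chi3l1, a secreted chitinase-like protein, stood at 458 and 371 CPM against 19.1 and 17.1. Itgb7, the integrin chain of gut homing, stood at 262 and 209 CPM against 19.5 and 16.9. Glycolysis genes were higher in both libraries in 15 of 19 cases and lower in 1.

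Neutrophil-like cells are shallow, with median depths of 2278 and 2594 UMIs, and the share of genes at least 2-fold above them was large, at 27.4%, with 7.39% at least 2-fold below. By any amount, 64.7% were higher and 27% lower in both libraries. Of 19 identity markers, 12 were higher in both libraries and 3 lower. The count of higher markers is near the share of all genes, so it does not set the 2 classes apart. Of 10 neutrophil markers outside the rule, 10 were lower in Fcnb Vcan cells by at least 2-fold. Retnlg, a resistin-like secreted protein, stood at 1.74 and 2.95 CPM against 885 and 3560, and Cxcr2, the chemokine receptor of neutrophils, at 3.80 and 2.07 against 250 and 276. Tgfbi, a matrix protein induced by TGF-beta, stood at 508 and 311 CPM against 19.7 and 5.70, and S100a4, a calcium-binding protein of moving cells, at 3681 and 3345 against 223 and 225.

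**Figure D1:**
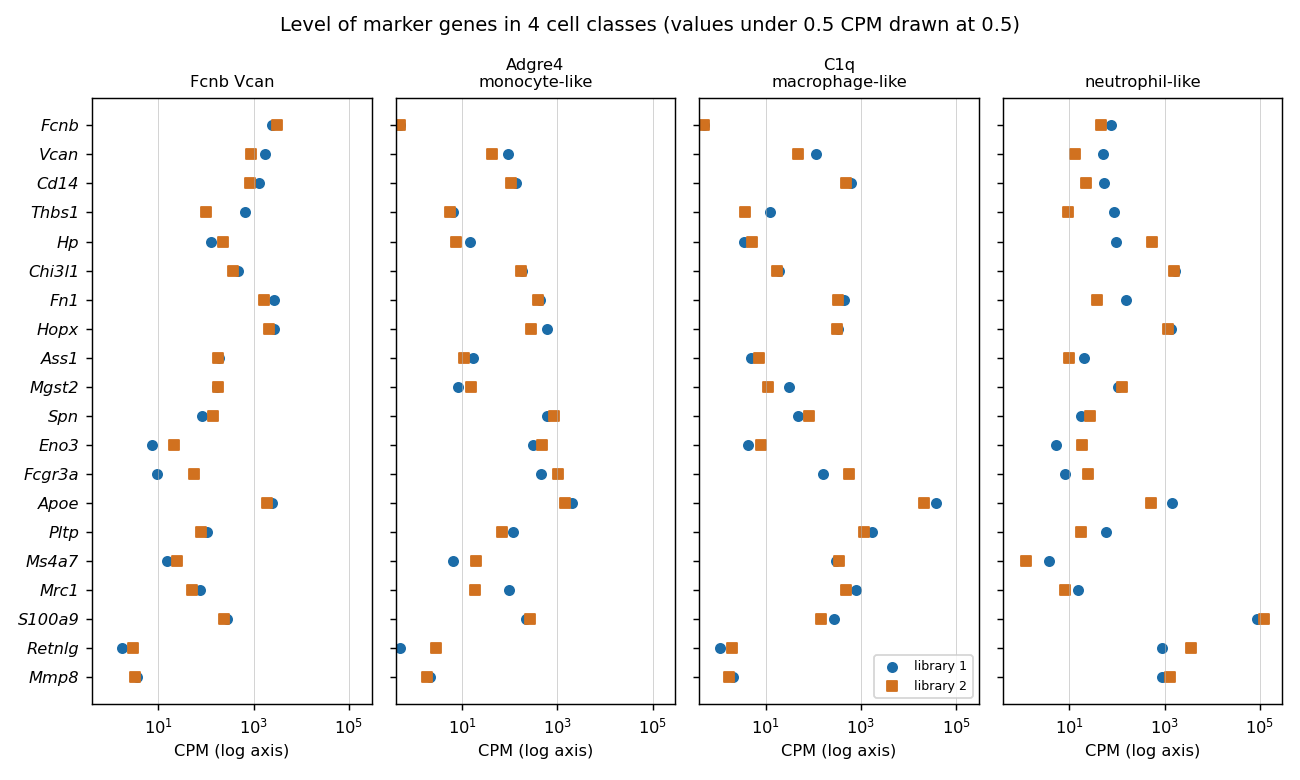
Level in CPM on a log axis of 20 marker genes in 4 cell classes, with circles for library 1 and squares for library 2, and values under 0.5 CPM drawn at 0.5. Hp, Fn1, Hopx, Ass1 and Mgst2 sit higher in Fcnb Vcan cells than in Adgre4 monocyte-like cells, while Spn, Eno3 and Fcgr3a sit lower, and Apoe and Pltp are highest in C1q macrophage-like cells.

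Between the libraries most genes of the Fcnb Vcan cells stood close together. Ratios are log2 of library 2 over library 1 on CPM plus 10, for 5159 genes with at least 20 CPM in either library. Of these, 83 (1.61%) were at least 2-fold higher in library 2 and 47 (0.911%) at least 2-fold lower. The median of all genes was 0.05, and 58.1% of genes had a ratio above 0. A gene list is described against these shares. Among lists with at least 10 genes at 20 CPM, the highest medians were those of the type I interferon response (1.10) and of interferon gamma and class I (0.72), and the lowest those of matrix (−0.69), unfolded protein response (−0.59) and glycolysis genes (−0.30). Shorter lists reached as far, with 1.06 for 2 dendritic cell genes, 0.78 for 5 NK cell genes, −1.45 for 2 stromal genes and −0.66 for 9 growth factor genes.

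**Figure D2:**
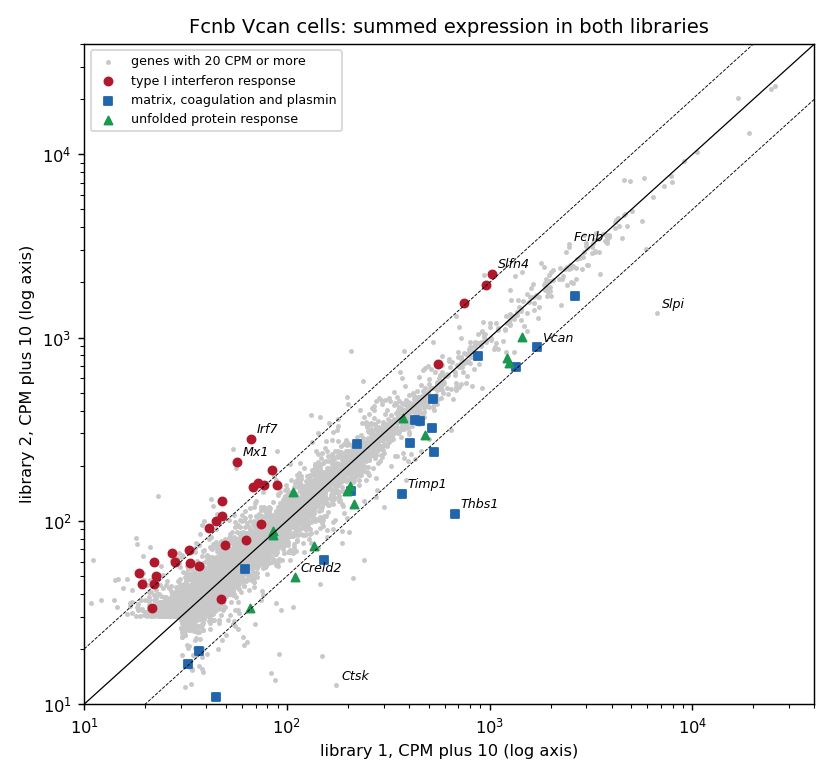
Summed expression of the 5159 genes in Fcnb Vcan cells, CPM plus 10 in library 1 against library 2 on log axes, with the solid line at equal levels and dashed lines at 2-fold. Type I interferon genes (red circles) sit above the solid line except Ifitm3, while 18 of 19 matrix genes (blue squares) and 12 of 14 unfolded protein response genes (green triangles) sit below it.

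Type I interferons bind a receptor on nearly every cell and start transcription from the interferon-stimulated response element. The genes they induce act against viruses and amplify the response. Interferon gamma has a receptor of its own and raises antigen presentation on MHC class I and II. Of 38 type I interferon genes in the matrix, 30 reached 20 CPM. Of these, 29 were higher in library 2, 21 of them at least 2-fold, against 1.61% of all genes. The list median was 1.10, and 29 genes were higher with Poisson intervals apart, as were 18% of all genes, while 11.4% were lower with intervals apart.

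Irf7, the transcription factor that amplifies interferon production, stood at 56.6 and 271 CPM, with 95% Poisson intervals of 50.9 to 62.8 and 254 to 289. It was found in 28.2% and 72.2% of cells. At 1500 UMIs per cell the shares were 8.98% and 32.7%, against 4.93% and 9.88% of T-like cells, so Irf7 was the more frequent in library 2 in both classes. Mx1, an antiviral GTPase, stood at 46.9 and 201 CPM and was found in 14.5% and 57.5% of cells. T-like cells had Mx1 at 150.5 and 175.5 CPM, a far smaller gap between libraries.

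Effectors of the response followed the same order. Isg15, a ubiquitin-like modifier, stood at 74.0 and 180 CPM, and Ifit3, an RNA-binding antiviral protein, at 37.6 and 119. Oas1a, which makes the messenger that activates RNase L, stood at 61.8 and 152 CPM. Both Isg15 (1966 and 5942 CPM) and Ifit3 (2186 and 4729 CPM) stood far higher in neutrophil-like cells, and the part of free neutrophil RNA in their levels here was not tested.

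Genes that nearly every Fcnb Vcan cell carried were also higher in library 2. Slfn4, a Schlafen family gene, stood at 1022 and 2227 CPM and was found in 94.7% and 99.0% of cells. Ifi27 stood at 950 and 1927 CPM, and Ly6e, a membrane-anchored protein, at 740 and 1530. T-like cells had Ly6e at 140 and 201. Smaller gaps were those of Bst2, the tetherin that holds budding virus, at 544 and 708 CPM, and Oasl2 at 64.7 and 86.2. Ifitm3 was the 1 gene lower in library 2, at 37.2 and 27.5 CPM, in 4.29% and 7.84% of cells.

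The interferon gamma and class I list had a median of 0.72, with 19 of 19 genes higher in library 2. At least 2-fold higher were 5 of them, against 1.61% of all genes. B2m, the shared light chain of class I, stood at 4913 and 7162 CPM, and RT1-CE5, a rat class I heavy chain gene, at 226 and 569. Reads of RT1 genes may be split among near-identical copies, so single RT1 values are uncertain. Tap1, which carries peptides to class I, stood at 41.7 and 91.3 CPM, Irf1 at 111 and 183, and the GTPase Gbp2 at 46.1 and 185. All of these were higher in library 2 with intervals apart, as were 18% of all genes.

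Cxcl10, the chemokine that draws T cells through CXCR3, stood at 44.2 and 238 CPM, found in 4.94% and 19.7% of cells. It was uneven among cells, since 5 cells held 71.0% of its UMIs in library 1 and 44.2% in library 2. Cxcl11, a ligand of the same receptor, stood at 52.2 and 103 CPM in only 0.779% and 4.51% of cells. It was at 0 in Adgre4 monocyte-like cells of both libraries.

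Other genes that the naming rule picked for their ratio were Ifi27l2b (198 and 833 CPM), Samd9 (33.0 and 110), Gvin1 (32.3 and 122), Gyg1 (121 and 368), Fcgr3a (9.51 and 54.6) and Xcl1 (8.24 and 64.4). Gyg1 encodes glycogenin, the primer of glycogen synthesis, and was found in 47.8% and 69.6% of cells. In T-like cells Ifi27l2b stood at 3270 and 3071, so its level here was lower than there in both libraries. Ccl12 (1.11 and 51.1 CPM) and Ccl17 (7.93 and 70.3) came from few cells, with 88.4% and 97.9% of their UMIs of library 2 in 5 cells. The ratio of Ccl17, 2.16, was −0.31 with at least 2 UMIs of Fcnb per cell.

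The higher level was spread over the cells of library 2. With each cell drawn to 1500 UMIs, the summed type I interferon list had a median of 6 UMIs in 757 cells of library 1 and 13 in 416 cells of library 2. The 10th percentile was 2 and 6 UMIs, and the upper quartile of library 1, 9 UMIs, was the lower quartile of library 2. The interferon gamma and class I sum had medians of 10 and 16 UMIs. Other classes also stood higher in library 2. The type I list median was 0.33 in Adgre4 monocyte-like, 0.76 in C1q macrophage-like, 0.57 in neutrophil-like and 0.31 in T-like cells, against 1.10 here. For the interferon gamma and class I list it was 0.69, 0.81, 0.47 and 0.18, against 0.72. With 1 library a side, whether the classes differ in this was not tested.

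Promoters of interferon genes were read from the RefSeq table of GRCr8, matched by symbol, from 250 bases before to 50 after each start. The core of the interferon-stimulated response element, searched as GAAA, any 2 bases and GAAA on either strand, was in 3.92% of 33469 promoters and in 164 of the 4023 (4.08%) genes at 20 CPM that had a promoter. It was in 14 of 22 type I interferon genes and 12 of 19 interferon gamma and class I genes with a promoter. Of genes at least 2-fold higher in library 2 it was in 23 of 55 (41.8%), and of those at least 2-fold lower in 2 of 31. The 3 promoters below belong to genes with large ratios, with the match in capitals, at chr14:15988816-15989115 (plus strand) for Cxcl10, chr1:205799974-205800273 (minus strand) for Irf7 and chr2:234005477-234005776 (plus strand) for Gbp2. The match began 243, 69 and 31 bases before the start.
Cxcl10: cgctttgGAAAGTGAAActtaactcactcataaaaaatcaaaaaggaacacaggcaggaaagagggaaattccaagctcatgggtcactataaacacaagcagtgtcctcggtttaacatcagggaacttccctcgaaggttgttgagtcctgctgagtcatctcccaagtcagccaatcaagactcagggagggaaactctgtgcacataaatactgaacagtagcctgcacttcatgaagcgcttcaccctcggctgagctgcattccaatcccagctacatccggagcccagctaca
Irf7: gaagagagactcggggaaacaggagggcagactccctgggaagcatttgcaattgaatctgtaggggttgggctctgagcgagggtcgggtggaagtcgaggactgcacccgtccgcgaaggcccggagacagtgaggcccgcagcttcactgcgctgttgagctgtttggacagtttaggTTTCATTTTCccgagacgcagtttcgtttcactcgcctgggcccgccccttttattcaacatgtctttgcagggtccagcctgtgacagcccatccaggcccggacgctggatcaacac
Gbp2: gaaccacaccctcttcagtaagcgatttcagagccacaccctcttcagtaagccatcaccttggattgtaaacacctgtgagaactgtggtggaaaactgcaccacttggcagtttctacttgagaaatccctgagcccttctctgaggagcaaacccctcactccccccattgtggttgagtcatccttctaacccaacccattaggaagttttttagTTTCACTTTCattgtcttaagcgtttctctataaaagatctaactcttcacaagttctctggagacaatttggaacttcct
A match is a description of the letters, and binding at it was not measured.

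Matrix, coagulation and plasmin genes stood on the other side. Monocytes at wounds make fibronectin and other provisional matrix, proteases and their inhibitors, and clotting regulators. Of 19 genes at 20 CPM, 18 were lower in library 2, 5 of them at least 2-fold, against 0.911% of all genes, and the median was −0.69. Without Vcan and Thbs1, which the rule used, 16 of 17 were lower, 4 at least 2-fold, with a median of −0.64.

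Among matrix proteins, Fn1 stood at 2617 CPM (2577 to 2657) in library 1 and 1674 (1631 to 1718) in library 2, and Tgfbi at 508 and 311. Among enzymes and inhibitors, Timp1, the inhibitor of metalloproteinases, stood at 360 and 131 CPM, found in 55.6% and 31.4% of cells. Ctsl, a lysosomal protease, stood at 1340 and 680 CPM, and Tgm2, the transglutaminase that cross-links matrix, at 143 and 50.8. Thbd, the thrombin-binding anticoagulant thrombomodulin, stood at 397 and 254 CPM. These genes were lower in library 2 with intervals apart, as were 11.4% of all genes. Ctss, a cathepsin that trims the class II chaperone, was the 1 exception, at 212 and 252 CPM. Mmp9 stood at 34.9 and 0.886 CPM and was found in 0.779% and 0.713% of cells, so its level came from few cells.

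Per cell at 1500 UMIs, the matrix sum without the rule genes had medians of 12 and 8 UMIs. Other classes had medians of ratios of the same sign for this list, −0.34 in Adgre4 monocyte-like, −0.41 in C1q macrophage-like, −0.60 in neutrophil-like and −0.57 in T-like cells. T-like cells had Fn1 at 125 and 46.6 CPM, and T cells are no main source of fibronectin. The part of free RNA in the values of the monocytes was not tested.

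Growth and repair factors had a median of −0.66, with 6 of 9 genes lower in library 2, and of −0.11 with genes under 20 CPM included. Over all genes, 58.1% had a ratio above 0. Vegfa, the factor that drives vessel growth, stood at 521 and 226 CPM, found in 74.5% and 48.0% of cells. Osm, a cytokine that makes heart muscle cells dedifferentiate, stood at 230 and 119. Areg, a ligand of the epidermal growth factor receptor, was higher in library 2, at 65.5 and 96.3 CPM, as was Grn, the lysosomal progranulin, at 467 and 676.

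Glycolysis and hypoxia genes had a median of −0.30, with 17 of 19 lower in library 2. The ratio was above 0 for 58.1% of all genes. At least 2-fold lower were 2 of the 19, against 0.911% of all genes. Hif1a, the transcription factor of the hypoxia response, stood at 364 and 226 CPM, and Ldha, which turns pyruvate to lactate, at 2247 and 1492. Arg1, the arginase of repair macrophages, stood at 35.7 and 10.0 CPM in 7.79% and 3.80% of cells. Aldoa (1242 and 1209 CPM) and Slc2a1, the glucose transporter (87.5 and 83.9), were nearly level. The 2 genes past 2-fold were Arg1 and Vegfa, and Vegfa is also counted in the matrix and growth factor lists. Other classes had list medians of the same sign. These were −0.11 in Adgre4 monocyte-like, −0.17 in C1q macrophage-like, −0.14 in neutrophil-like and −0.11 in T-like cells.

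The unfolded protein response lets a secretory cell raise its folding capacity. The sensors ATF6 and IRE1 turn on chaperones of the endoplasmic reticulum, the latter through XBP1. Of 14 genes, 12 were lower in library 2, with a median of −0.59, where 58.1% of all genes had a ratio above 0. At least 2-fold lower was 1 of the 14, against 0.911% of all genes. Among chaperones, Hspa5, the chaperone BiP, stood at 1429 CPM (1400 to 1459) and 998 (965 to 1032), Hsp90b1 at 1234 and 716, and Calr, calreticulin, at 1214 and 762. Pdia4, a disulfide isomerase, stood at 127 and 62.9 CPM, Dnajc3, a co-chaperone, at 204 and 114, and Creld2 at 100.2 and 39.3. Xbp1 itself stood at 55.5 and 23.3 CPM.

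Not all genes of the list were lower. Ddit3, the transcription factor CHOP, stood at 97.6 and 133 CPM, and Atf4, the factor upstream of it, at 362 and 356. Dnajb9, a co-chaperone, stood at 75.1 and 77.7 CPM and Herpud1, which takes part in the degradation of misfolded proteins, at 75.1 and 74.1. The T-like cells had Hspa5 at 1012 and 987 CPM, and the list median was −0.19 there, −0.16 in Adgre4 monocyte-like, −0.17 in C1q macrophage-like and −0.11 in neutrophil-like cells. Per cell at 1500 UMIs the sum had medians of 7 and 5 UMIs in Fcnb Vcan cells.

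The endoplasmic reticulum stress element, searched as CCAAT, any 9 bases and CCACG on either strand, was in 22 of 33469 promoters (0.0657%), in 12 of the 4023 genes at 20 CPM (0.298%), and in 6 of 12 unfolded protein response genes with a promoter. These were Hspa5, Hsp90b1, Calr, Creld2, Xbp1 and Dnajc3, all lower in library 2. The promoters of the last 3 are shown with the match in capitals, at chr7:121789134-121789433 for Creld2, chr14:84604373-84604672 for Xbp1 and chr15:102432417-102432716 for Dnajc3, all on the plus strand of GRCr8. The match began 145, 65 and 133 bases before the start, on the minus strand in Creld2.
Creld2: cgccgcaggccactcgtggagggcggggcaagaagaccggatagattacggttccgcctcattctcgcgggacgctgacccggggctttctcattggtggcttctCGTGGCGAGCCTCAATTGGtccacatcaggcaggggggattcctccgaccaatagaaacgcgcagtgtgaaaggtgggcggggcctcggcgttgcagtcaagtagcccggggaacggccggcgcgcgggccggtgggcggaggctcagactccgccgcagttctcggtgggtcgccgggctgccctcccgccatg
Xbp1: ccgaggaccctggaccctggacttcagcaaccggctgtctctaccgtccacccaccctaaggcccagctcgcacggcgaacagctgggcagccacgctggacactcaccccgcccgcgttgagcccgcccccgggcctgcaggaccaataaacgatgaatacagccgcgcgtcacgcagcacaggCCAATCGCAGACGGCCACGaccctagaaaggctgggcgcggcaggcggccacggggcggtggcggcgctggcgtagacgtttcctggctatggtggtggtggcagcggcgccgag
Dnajc3: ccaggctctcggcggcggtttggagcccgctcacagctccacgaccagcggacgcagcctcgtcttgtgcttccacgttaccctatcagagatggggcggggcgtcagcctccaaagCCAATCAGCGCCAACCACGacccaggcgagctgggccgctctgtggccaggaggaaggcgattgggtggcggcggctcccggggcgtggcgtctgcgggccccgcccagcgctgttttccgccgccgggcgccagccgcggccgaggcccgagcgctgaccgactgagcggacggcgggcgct
Use of the element was not measured.

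**Figure D3:**
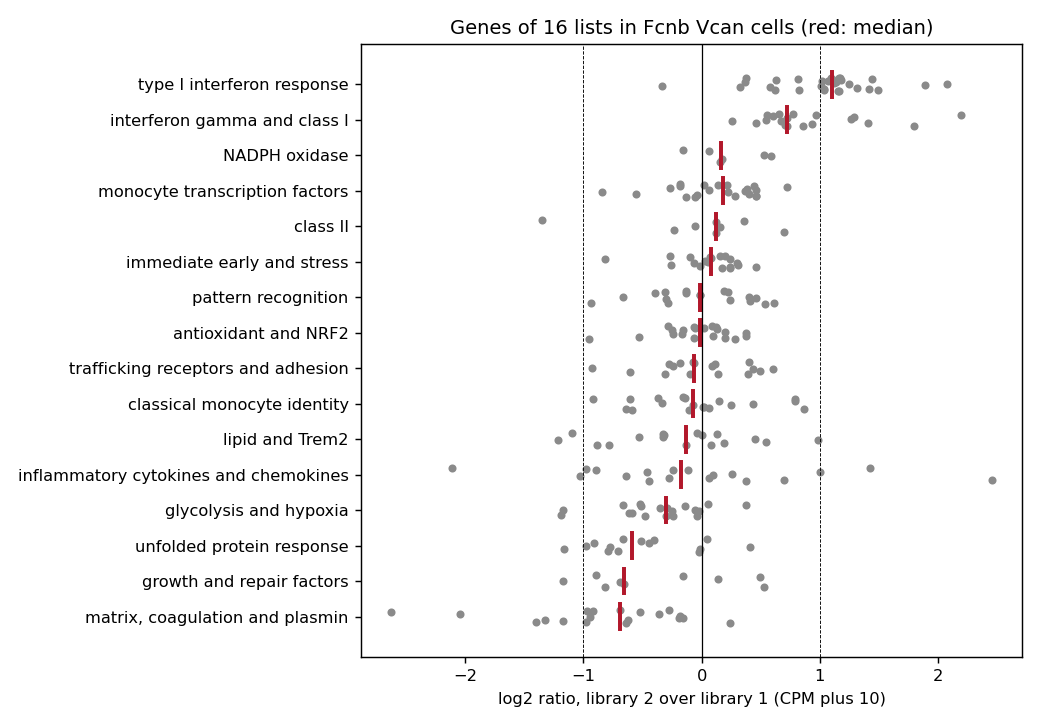
Log2 ratio of library 2 over library 1 (CPM plus 10) in Fcnb Vcan cells for the genes at 20 CPM of 16 lists, with 1 point a gene, a red bar at each median and dashed lines at 2-fold. The type I interferon genes sit to the right (median 1.10) and the matrix genes to the left (median −0.69), while the pattern recognition genes lie on both sides of 0 (median −0.01).

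Inflammatory cytokines and chemokines went both ways, with 8 genes higher and 10 lower in library 2 and a median of −0.18, which was 0.034 with genes under 20 CPM included. Il1b, the precursor of interleukin 1 beta, stood at 1248 and 1331 CPM, found in 81.4% and 81.9% of cells, and Ccl3 at 305 and 320. Ccl2, which draws monocytes through CCR2, stood at 633 and 304 CPM, and the neutrophil chemokines Cxcl2 and Cxcl3 at 2548 and 1628 and at 420 and 209. Ccl4, a chemokine of the same family as Ccl3, stood at 79.1 and 230 CPM, and Ccl6 at 169 and 349. Ccl24, an eotaxin, stood at 202 and 39.0 CPM in 9.87% and 4.04% of cells. Ccl2, Cxcl2, Cxcl3 and Ccl24 were thus lower in library 2, Ccl4 and Ccl6 higher, and Il1b and Ccl3 nearly level.

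Pattern recognition genes had a median of −0.01 over 18 genes, and of −0.01 over 17 without Cd14, which the rule used. Tlr2, the receptor of lipoproteins, stood at 150 and 112 CPM, and Tlr7, the endosomal receptor of single-stranded RNA, at 44.9 and 69.4. Trem1, which amplifies inflammatory signals, stood at 449 and 229 CPM. Clec7a, the receptor of fungal glucans, stood at 381 and 377. No gene of this list differed by 2-fold.

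Trafficking genes had a median of −0.06 over 17 genes, with none past 2-fold. Ccr1, a receptor of inflammatory chemokines, stood at 187 and 93.6 CPM, and Itgam, the integrin chain CD11b, at 121 and 76.2. Itga4, a chain of the integrin VLA-4, stood at 237 and 314 CPM and Icam1 at 129 and 185. Cxcr4, the receptor that keeps cells in the marrow, was nearly level at 482 and 460.

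Complement genes had a median of 0.05 over 12 genes, and of 0.02 over 11 without Fcnb, which the rule used. Cfp, properdin, stood at 241 and 255 CPM in the same cells. C3, the central component, stood at 34.7 and 66.7. NADPH oxidase genes, which make the oxidative burst, had a median of 0.17, with 5 of 6 higher in library 2. Of all genes, 58.1% had a ratio above 0. Cybb, the catalytic subunit, stood at 1255 and 1815 CPM, and Rac2 at 294 and 448. The NADPH oxidase median was 0.10 in Adgre4 monocyte-like, 0.06 in C1q macrophage-like, 0.09 in neutrophil-like and −0.17 in T-like cells.

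Antioxidant and NRF2 genes split evenly, 10 higher and 10 lower, with a median of −0.02. Prdx5, a peroxiredoxin, stood at 5911 and 3045 CPM, and Fth1, the ferritin heavy chain, at 18961 and 13136. Txn1, thioredoxin, stood at 921 and 1199 CPM, and Nfe2l2, encoding NRF2, at 156 and 205. T-like cells had Prdx5 at 395 and 203 CPM, lower in library 2 as well.

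Lipid and Trem2 genes had a median of −0.13, with 10 of 17 lower in library 2, where 58.1% of all genes had a ratio above 0. Without Spp1, which the rule limits, the median was −0.09, with 9 of 16 lower. Cd9, a tetraspanin, stood at 177 and 77.7 CPM, and Cd63, another, at 905 and 523. Lipa, the lysosomal acid lipase, stood at 93.0 and 194 CPM, and Trem2, the lipid receptor of tissue macrophages, at 60.4 and 86.5. Fabp4, a fatty acid carrier, stood at 377 and 157 CPM in 9.35% and 10.5% of cells.

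Transcription factors of the monocyte lineage had a median of 0.18 over 22 genes, with none past 2-fold. Cebpb, which non-classical monocytes of mice need, stood at 3860 and 3524 CPM, Klf4, needed for monocyte formation in mice, at 941 and 1038, and Spi1, encoding PU.1, at 303 and 393. Id2, which restrains the E protein transcription factors, stood at 158 and 267 CPM. Immediate early genes, which tissue digestion can induce, had a median of 0.08, and of −0.0088 with another scaling (TMM). Fos stood at 1946 and 2025 CPM and Junb at 2183 and 2088, with no gene of the list past 2-fold.

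Cell cycle genes were low. Of 19 in the matrix 6 reached 20 CPM, and Mki67, a marker of dividing cells, was found in 6.49% and 7.13% of cells at 32.5 and 35.1 CPM. The list median was 0.52, with genes under 20 CPM included 0.18, and 0.80 without cells with a UMI of Cd3d, Cd3g, Lck, Ncr1 or Gzma. Hmgb2, which is not specific to division, stood at 168 and 263 CPM and Pcna at 241 and 244.

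Genes lower in library 2 by the largest ratios were of several kinds. Slpi, a secretory inhibitor of leukocyte proteases, stood at 6651 and 1351 CPM, found in 86.5% and 70.8% of cells. It stood at 14650 and 7598 CPM in neutrophil-like cells and 820 and 203 in T-like cells, and the part of free RNA was not tested. Ltb4r, the receptor of leukotriene B4, stood at 73.6 and 4.73 CPM, found in 31.9% and 2.85% of cells. Fbln1, the matrix protein fibulin 1, stood at 96.7 and 23.9 CPM in 43.9% and 15.9% of cells. Sdc1, the proteoglycan syndecan 1 (136 and 35.4 CPM), Sh2b2, an adaptor (83.7 and 22.4), and Pde4d, which degrades cyclic AMP (53.3 and 11.8), were likewise found in more cells of library 1.

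A few cells carried some of the largest ratios. Ctsk stood at 165 and 2.66 CPM, and 5 cells held 98.8% of its UMIs in library 1. Col4a1 (81.2 and 8.86 CPM), Cav1 (51.7 and 10.9) and Sparc (231 and 51.4) were found in 3.38%, 1.95% and 4.81% of cells of library 1, and 5 cells held 68.6%, 64.1% and 70.7% of their UMIs. They are known from fibroblasts, endothelium and other stroma. Of the stromal and muscle list, 16 cells of library 1 and 3 of library 2 had 5 UMIs or more, and its summed level was 290 and 86.8 CPM.

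Genes listed as markers of other leukocytes moved with the libraries too. Of the 2 lymphocyte lists, T cell markers summed to 176 and 269 CPM and NK cell markers to 193 and 382. The defining Cd3e was at 0 by the rule and Gzmb at 0 in both libraries. T or NK markers gave at least 1 UMI in 550 (71.4%) and 372 (88.4%) cells. They gave at least 5 UMIs in 101 (13.1%) and 116 (27.6%) cells. The medians were 0.54 over 4 T cell genes and 0.78 over 5 NK cell genes. The 4 T cell genes were Cd4, Cd8a, Cd8b and Cd2, while Cd3d, Cd3g and Lck stayed under 20 CPM. Whether the Fcnb Vcan cells make these transcripts themselves or hold lymphocyte RNA was not tested. Cd8a stood at 28.1 and 84.5 CPM and Klrk1, the receptor NKG2D, at 29.2 and 90.4. Their part in the interferon result was not tested. Cells with a UMI of Cd3d, Cd3g, Lck, Ncr1 or Gzma were left out in an alternative added after the data were seen. It kept 710 and 351 cells, so most cells with a T or NK marker UMI stayed in. The type I interferon median was then 1.12.

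The other marker lists gave these values. Non-classical markers had a median of 0.41 over 13 genes and summed to 1427 and 1739 CPM, and macrophage markers 0.13 (−0.11 without the condition on Vcan, Thbs1 and Cd14) over 11 genes and 3692 and 3276 CPM. Without Spp1, which the rule limits, the macrophage median was 0.19 over 10 genes. Neutrophil markers had a median of −0.41 over 7 genes and summed to 7864 and 2361 CPM, mostly Slpi, with Ngp and Ltf at 0. These 7 include S100a8 and S100a9, which the rule limits. Over the 5 genes outside the rule the median was −1.16, with 4 lower in library 2, 3 of them at least 2-fold. Of dendritic cell markers only Ccl17 and Clec10a reached 20 CPM, with Ccr7, Siglech and Cd209a at 0. Of B cell markers only Cd22 did, at 28.7 and 15.4 CPM. Mast cell or basophil markers summed to 4.28 and 1.77 CPM and platelet and erythroid markers to 4.91 and 17.1, with 0 genes at 20 CPM in either.

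**Figure D4:**
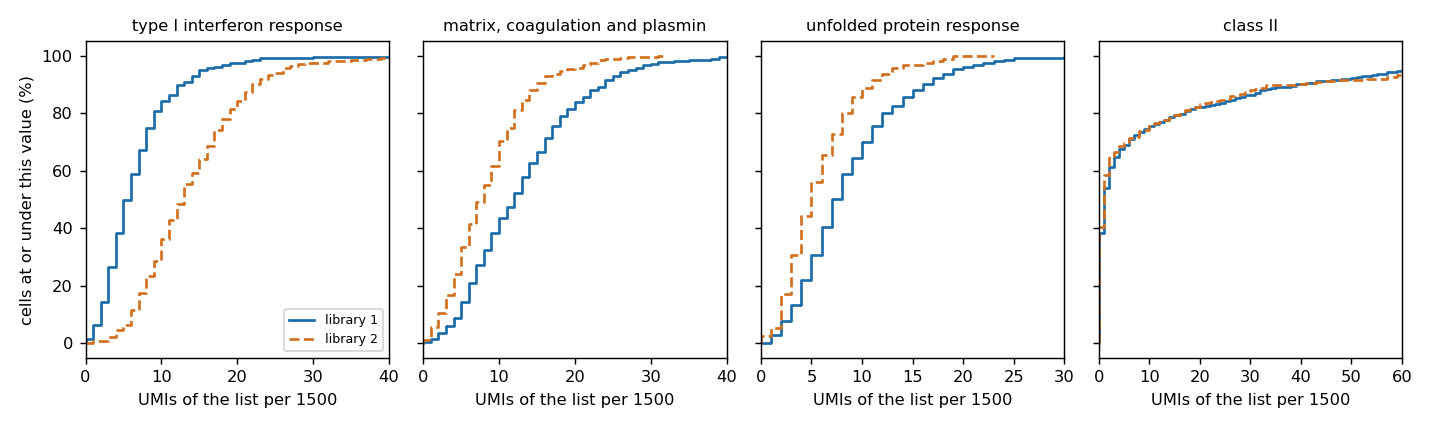
Share of Fcnb Vcan cells (%) at or under each summed UMI count of a list, with each cell drawn to 1500 UMIs, in 757 cells of library 1 (solid) and 416 of library 2 (dashed). The curve of library 2 lies right of library 1 for type I interferon genes (medians 13 and 6 UMIs) and left of it for matrix (8 and 12) and unfolded protein response genes (5 and 7), and both nearly coincide for class II.

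MHC class II presents peptides to helper T cells, and among monocyte-derived cells it rises with maturation towards macrophages and dendritic cells. Between the libraries it was nearly level, with a list median of 0.12 over 8 genes that turned to −0.17 without the condition on Vcan, Thbs1 and Cd14. Cd74, the class II chaperone, stood at 3337 and 3713 CPM and RT1-Da at 2441 and 2348. Cd80, a co-stimulatory ligand, was the 1 gene past 2-fold, at 59.9 and 17.4 CPM. Cd40, another, stood at 19.7 and 38.1.

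Among cells the class II sum varied widely. At 1500 UMIs it was 0 in 38.3% and 40.4% of cells, and the 90th percentile was 39 and 37 UMIs. At most 1 UMI was found in 410 cells (54.2%) of library 1 and 243 (58.4%) of library 2. At least 10 were found in 193 (25.5%, exact 95% interval 22.4 to 28.8) and 107 (25.7%, 21.6 to 30.2). The intervals of the shares of high cells overlapped. These 2 sets are ranges of a score and not cell types, and 29 and 20 cells lay close to the upper limit, at 8 to 11 UMIs. High cells were deeper, with medians of 8860 and 9413 UMIs against 7509.5 and 7402, and 6 of 193 and 1 of 107 were called doublets.

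Genes outside class II were compared between low and high cells within each library. Over all genes, with class II left out of totals, 28 of 5635 (0.497%) were at least 2-fold higher and 29 (0.515%) at least 2-fold lower in high cells of both libraries. Higher were Tmem176a, a membrane protein known from dendritic cells, at 77.0 CPM in low and 638 in high cells of library 1 and 83.6 and 693 in library 2. Clec10a, the galactose lectin of dendritic cells and macrophages, stood at 187 and 851 CPM in library 1 and 102 and 954 in library 2. Cst3, cystatin C, stood at 436 and 1266 CPM and at 638 and 2776. Cd83, Mrc1, Lyve1 and Axl, each known from macrophages or dendritic cells, were also at least 2-fold higher.

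Lower in high cells were Hp, Chi3l1 and Fn1, and genes known from stroma. Hp stood at 193 CPM in low and 28.0 in high cells of library 1, and at 349 and 54.4 in library 2. Chi3l1 stood at 630 and 164 CPM and at 526 and 97.1, and Fn1 at 3365 and 1302 and at 2340 and 580. Sparc, a matrix protein of stroma, stood at 335 and 103 CPM and at 85.8 and 13.6. Fbln1, Cav1, Igfbp7 and Col4a1 were also at least 2-fold lower in both libraries. Of these, Fbln1 was found in far more cells of library 1 than Cav1 and Col4a1, as given above. Of 3 stromal and muscle genes at 20 CPM, 2 were lower in both, with medians of −1.18 and −1.35, and their part in the difference was not tested. Over all genes, 38.6% were higher and 26.3% lower in high cells of both libraries by any amount. Of 20 classical identity genes 13 were lower in both libraries and 4 higher, with medians of −0.28 and −0.24. Of 10 macrophage genes 6 were higher in both and 2 lower. The type I interferon list went both ways, 6 of 30 genes higher and 9 lower in both libraries.

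**Figure D5:**
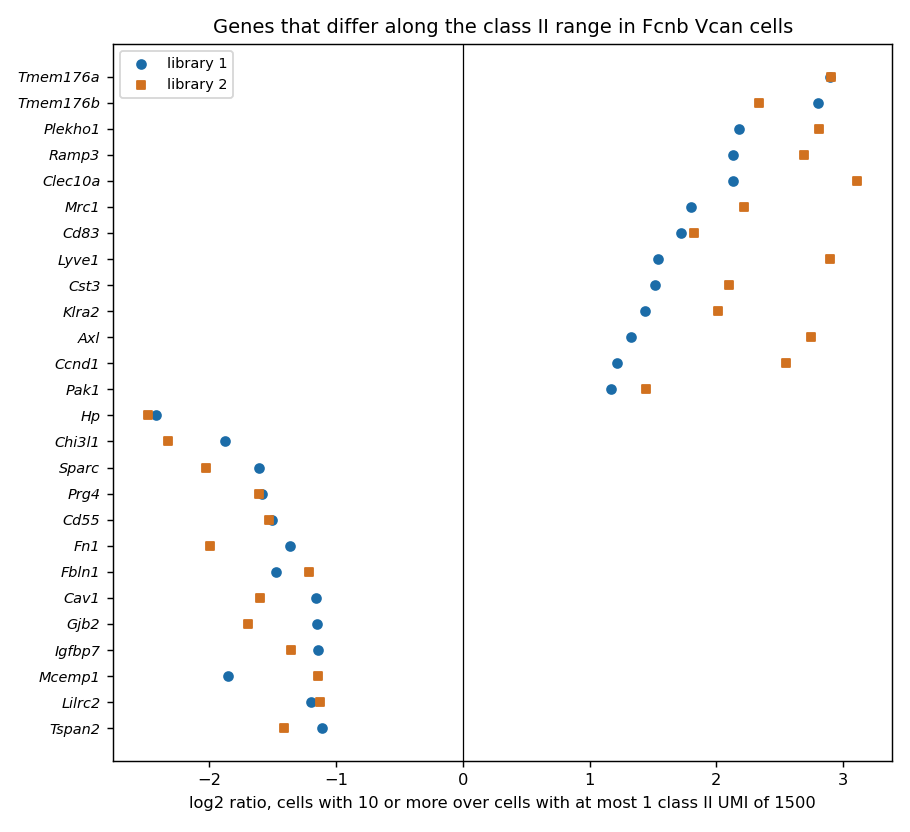
Log2 ratio (CPM plus 10, class II left out of totals) of cells with 10 or more over cells with at most 1 class II UMI of 1500, in library 1 (circles) and library 2 (squares), for the 13 genes highest and the 13 lowest in both. Tmem176a and Clec10a lie to the right and Hp and Chi3l1 to the left in both libraries.

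How the programmes went together was described over cells at 1500 UMIs, with genes shared by lists left out. Cells of a library share their depth and free RNA, so the values are a description. Matrix and glycolysis sums had a Spearman rho of 0.49 over 757 cells of library 1 and 0.23 over 416 of library 2. Class II and matrix sums had −0.31 and −0.25. Type I interferon and interferon gamma sums had 0.28 and 0.14, and type I interferon and matrix sums −0.08 and 0.04.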

How the data were processed

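CD45+ cells of 2 libraries were profiled with a 10x Genomics 3′ kit, per the labels' protocols. The deposited values are raw counts of UMIs for each gene in each barcode, and per the file headers they come from Cell Ranger 4.0.0. For the genome build and the calling of cells, the sources used here give nothing. The labels put 1 sample in each group, and no suffix can be tied to one. A deposited table of 33756 barcodes shares 111 with the matrix under the same suffix and was not used.

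The 1453 symbols that occur on several lines were summed, giving 26976 symbols. Cells needed 200 genes or more and no more than 20% Mt- UMIs, and 146 and 115 barcodes failed. Scrublet, run in scanpy 1.11.5 per library with an expected share of 8%, called 575 (4.07%) and 1060 (6.82%) doublets, which stayed in the main values. The comparison classes were cut by gates on raw UMIs: Adgre4 monocyte-like (Adgre4 at least 2, Fcnb 0), C1q macrophage-like (C1q genes at least 5, Fcnb 0), neutrophil-like (S100a8 with S100a9 at least 2%) and T-like (Cd3e at least 2).

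The planned comparison of groups gave way to values per library. UMIs were summed per class and library to CPM, and ratios are log2 of CPM plus 10 for genes at 20 CPM or more in either library. Each side is 1 library, so no test was made and no p-value computed. Poisson and exact binomial intervals (95%) cover counting error only. Shares across depths and sums per cell used 1500 UMIs drawn once from each cell, which left out 13 and 5 shallower members. The code for ratios and intervals was checked on simulated Poisson counts, which hold no spread between cells beyond counting error.

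The cells, lists and genes were chosen with earlier results of these data known. Named genes were the 12 highest and 12 lowest ratios between libraries, the 15 highest and 10 lowest against each class (at least 50 UMIs and 50 CPM, proper symbols, no rule genes), and of each list the 5 most abundant and the 2 highest and 2 lowest at 50 CPM. A few genes that these rules name are not reported here. Other genes in the text are list members, class II split genes or genes of the rule, chosen after their values were seen. Alternatives changed the doublets, the rule, the scaling (TMM of edgeR 4.0.16), the pseudocount, the minimum and the weighting of cells. Promoters came from the RefSeq table of GRCr8. Python 3.11.15, numpy 2.4.6, scipy 1.17.1, pandas 2.3.3 and matplotlib 3.10.9 were used.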

Additional observations from a re-analysis of the deposited data

How the results depend on the processing

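The type I interferon median stayed between 0.96 and 1.28 and the interferon gamma and class I median between 0.64 and 0.81 over the alternatives tried, and those of matrix (−0.86 to −0.41), unfolded protein response (−0.68 to −0.51) and glycolysis genes (−0.46 to −0.28) stayed below 0. The share of cells in library 1 and library 2 was 4.92% and 2.45% with Fcnb of at least 2 UMIs, and 4.27% and 1.74% with the rule applied at 1500 UMIs. It was 7.31% and 5.0% without the condition on Vcan, Thbs1 and Cd14, and 5.02% and 2.26% without cells with a UMI of Cd3d, Cd3g, Lck, Ncr1 or Gzma, 2 settings chosen after seeing the data, as was counting AY172581 as mitochondrial.

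Without the condition on Vcan, Thbs1 and Cd14 the medians were −0.11 for macrophage and −0.17 for class II genes, both turned in sign, −0.66 for neutrophil, −0.86 for matrix and −0.46 for glycolysis genes. Ratios that turned in sign were Cd59 0.091, Cd74 −0.11, G0s2 0.42, Gpnmb −0.060, Itgb2 0.033, Junb 0.028, Lilrc2 0.11, RT1-Ba −0.18, RT1-Db1 −0.16 and Trem3 0.060. With Fcnb of at least 2 UMIs the class II median was 0.0038, and the turned ratios were Apoe 0.035, Ccl17 −0.31, Crip1 −0.0092, RT1-Db1 −0.019 and S100a9 0.14. The ratio of S100a9 also turned without called doublets (0.35), with S100a8 and S100a9 under 1% (0.21) and as a mean over cells (0.041), and the neutrophil median was then −0.13, −0.25 and −0.14. The neutrophil medians of this section include S100a8 and S100a9, which the rule limits.

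With TMM scaling the medians were −0.16 for classical identity, 0.032 for class II, −0.68 for unfolded protein response and −0.0088 for immediate early genes, turned in sign, as were Btg2 (−0.0088), Crip1 (−0.026), Cyba (−0.027) and Fos (−0.033). The median of all genes was then −0.029. A pseudocount of 1 CPM gave 131 genes higher by 2-fold. With no minimum the medians were −0.16 for neutrophil, 0.034 for cytokine (turned in sign), −0.41 for matrix, −0.51 for unfolded protein response, −0.11 for growth and 0.18 for cell cycle genes. Without the lymphocyte-marker cells the cell cycle median was 0.80. The cause was not tested in any of these.

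No paired analysis was possible because each group is 1 sample and the barcodes of a library carry no replicate number. The 421 cells of library 2 hold fewer UMIs, so low levels there rest on few UMIs.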
